A study of Homo sapiens with 4 samples.

Results

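The genes described here are 8 human genes known for their regulation by the androgen receptor or for their use as markers of luminal prostate cells: KLK2, KLK3, KLK4, TMPRSS2, FOLH1, STEAP2, ACP3 and FKBP5. Their members on the array were all probe sets, groups of short probes for one transcript, whose annotation named 1 of these genes and no other gene. This gave 27 probe sets of the 40914 that name 1 gene, and 8 of 19774 genes. KLK4 had 5 probe sets, KLK2, TMPRSS2 and FOLH1 had 4 each, KLK3, ACP3 and FKBP5 had 3 each, and STEAP2 had 1. The receptor's own gene is not a member and was not analysed here.

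The samples were RNA from DU145, an established human prostate carcinoma line that grows without androgen, measured on 4 single-channel Affymetrix arrays. The control group, shGFP, consisted of 2 arrays of DU145 cells carrying a lentiviral short hairpin RNA against GFP, a jellyfish protein that human cells lack. The knockdown group, shDCUN1D1, consisted of 2 arrays of DU145 cells carrying a lentiviral short hairpin RNA against DCUN1D1, a ligase component of the neddylation pathway. Both groups shared the line, the lentiviral vector and DMEM with fetal bovine serum, and the records name no androgen treatment. The records also list DMSO for every sample, with no dose, and describe stably transduced cells, while the methods describe collection a few days after infection. They call the arrays of a group biological duplicates. More than 1 hairpin against DCUN1D1 is named in the methods, and which one a knockdown array carried is not stated in the records.

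In luminal cells of the prostate, androgen binds its receptor, which leaves its chaperones, enters the nucleus and binds DNA at response elements near target genes. Kallikrein proteases, the membrane protease TMPRSS2 and the co-chaperone FKBP5 are textbook targets, and the acid phosphatase ACP3 and the kallikreins are secreted into seminal fluid. DU145 is used as an androgen-independent line. The question asked of the arrays was whether these genes gave a signal above the array's own background in DU145 and whether that signal differed between the knockdown and the control.

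The proximal promoters of KLK3 and KLK2 are shown because an androgen response element lies in each at nearly the same distance from the start. The sequences are the 250 bases before the annotated start, from RefSeq on GRCh38.p14, both on the plus strand, with the element of 15 bases in capitals. The KLK3 window is chr19:50854665-50854914 and its element begins at base -170 from the start. The KLK2 window is chr19:50873189-50873438 and its element begins at base -176.
KLK3: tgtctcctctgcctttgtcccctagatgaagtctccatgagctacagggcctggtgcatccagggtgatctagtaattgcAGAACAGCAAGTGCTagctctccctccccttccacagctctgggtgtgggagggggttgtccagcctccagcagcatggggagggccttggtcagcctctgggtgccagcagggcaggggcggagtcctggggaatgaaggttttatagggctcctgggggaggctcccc
KLK2: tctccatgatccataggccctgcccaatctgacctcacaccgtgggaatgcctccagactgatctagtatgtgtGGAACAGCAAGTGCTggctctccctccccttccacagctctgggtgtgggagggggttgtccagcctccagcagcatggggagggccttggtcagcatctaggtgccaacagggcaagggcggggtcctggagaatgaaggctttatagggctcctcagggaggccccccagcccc
Counted from 1 at the first base of the element, with the KLK3 base first, the elements differ by A1G and by no other base. With the windows shifted by 6 bases to bring the elements together, 185 of 244 aligned bases were identical (75.8%). The half-site AGAACA, searched on both strands (its other strand reads TGTTCT), occurred in 5192 of 35116 promoter windows of the same table (14.8%), each holding 250 bases before and 50 after a start. It occurred in 2 of the 9 windows of the member genes, 1 of KLK3 and 1 of FKBP5. In the upstream bases alone it occurred in 12.4% of all windows and in 1 of the 9 member windows, that of KLK3. The full palindrome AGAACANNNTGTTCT occurred in 1 of the 35116 windows and in 0 of the 9, which says only that these letters are not in these windows. TMPRSS2 and FOLH1 had no window in the table. These matches describe sequence and not binding.

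Some facts of the whole series bear on every value below. The array carries 23 nonspecific control probe sets that match no human transcript and hold from 3 to 25 G or C bases, and their signal is the level reached without a target. The one with 20 G or C bases, here called the nonspecific control, read 2.97 and 3.30 in shGFP replicates 1 and 2 and 2.48 and 2.51 in shDCUN1D1 replicates 1 and 2. It was thus dimmer by 0.64 log2 in the knockdown arrays, and 20 of the 23 nonspecific probe sets were dimmer in both knockdown arrays than in either control array, with a median difference of -0.29 log2. The knockdown array of replicate 1 stood apart: 1416 probe sets lay more than 2 log2 above each other array in it, against 0 to 5 in the other arrays. The GAPDH control probe set of the 3' end read 10.8 in it, 5.02 and 4.68 in shGFP and 5.09 in shDCUN1D1 replicate 2. The middle GAPDH probe set read 11.1 in it and 9.39, 9.05 and 10.0 in those arrays. Over probe sets, shDCUN1D1 replicate 2 correlated at 0.916 with shGFP replicate 1 and at 0.746 with shDCUN1D1 replicate 1. What set this array apart from the others, or the others from it, was not tested. The targeted gene, DCUN1D1, read 2.55 and 1.99 in the control and 1.60 and 1.45 in the knockdown on its brightest probe set, all below the nonspecific control, and its mean difference over 6 probe sets was -0.22 log2. As a check of the cell type, the epithelial keratin KRT8 lay above the nonspecific control in all 4 arrays on its brightest probe set, KRT18 in 1 array and the epithelial adhesion molecule EPCAM in 0. EPCAM read 1.88 to 2.53, so a level below the nonspecific control was also found for a marker of epithelium.

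Differences are log2 signal in shDCUN1D1 minus that in shGFP, each the mean of 2 arrays, with the standard error (SE) and p of limma, which moderates the spread of a probe set by that of all. The study's rule for a call was a fold whose lower confidence bound, at a level of 90%, was above 1.2, and a probe set that met it with limma's standard error is called past the fold bound.

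Most members lay at the level of the nonspecific controls in every array. Log2 signals of the 27 probe sets ranged from 0.90 to 5.35, and the median member read 1.81 and 1.77 in the control and 1.52 and 1.87 in the knockdown arrays. The median over all probe sets tested was 1.63 and 1.63 in the control and 1.60 and 1.65 in the knockdown, so such a level was not particular to the members. Between 12 and 14 of the 23 nonspecific probe sets lay below the median member in an array. Of the 27, 23 lay above the nonspecific control of 20 bases in no array, 3 in some arrays and 1 in all 4. Of all probe sets, 4.39% lay above it in all 4. A member that stayed below it cannot be told from background by this cutoff, which does not show that its RNA was absent. The nonspecific signal broadly rose with the number of G or C bases, and the G or C content of the member probes was not taken into account. How many members lay above background thus depended on the control chosen. Against the control of 16 bases, 12 members lay above it in both arrays of a group, and against that of 20 bases 2 did. Above the control of 16 bases were 37.0% and 25.9% of the members in shGFP replicates 1 and 2, against 30.2% and 21.2% of all probe sets. In shDCUN1D1 replicates 1 and 2 these shares were 44.4% and 51.9%, against 45.8% and 42.3% of all. The plot of signals by array gives every value.

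**Figure D1:**
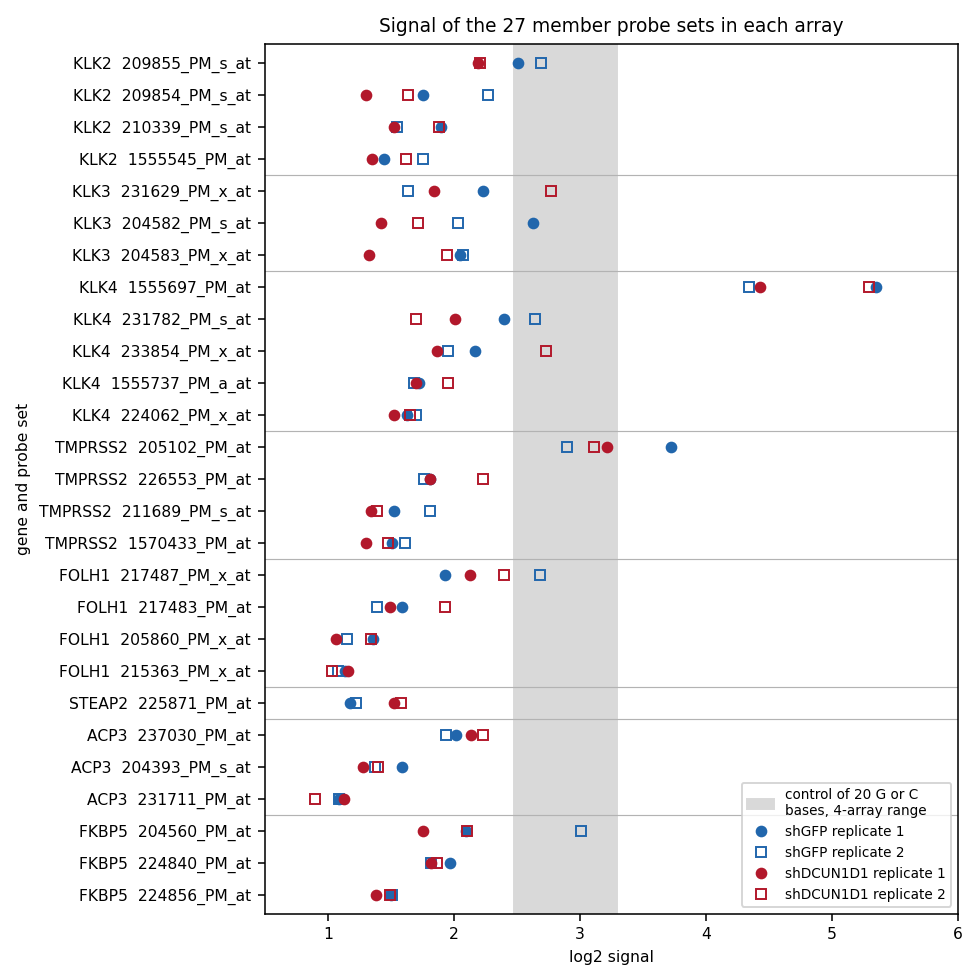
Log2 signal of the 27 probe sets (rows, grouped by gene) in the 4 arrays, shGFP in blue and shDCUN1D1 in red, replicate 1 filled and replicate 2 open, with the range of the nonspecific control (2.48 to 3.30) shaded. 1 probe set of KLK4 lies to the right of the shading in every array, from 4.34 to 5.35, and 1 of TMPRSS2 reaches 3.72, while most others lie to its left.

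Above the nonspecific control of their own array were 2 and 1 of the 27 members in shGFP replicates 1 and 2, and 2 and 4 in shDCUN1D1 replicates 1 and 2. These are 7.41% and 3.70% of the members in the control and 7.41% and 14.8% in the knockdown. Over all 40914 probe sets the shares were 8.97% and 6.07% in the control and 18.7% and 14.5% in the knockdown. The shares of the members overlapped between the groups (exact two-sided permutation test, p = 0.667, n = 2 against 2, where the smallest p this design allows is 0.333). The nonspecific control was itself dimmer in the knockdown arrays, and its part in these shares was not tested. Only 2 members, both proteases, lay above it in both arrays of at least 1 group, against 11.5% of all probe sets.

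**Figure D2:**
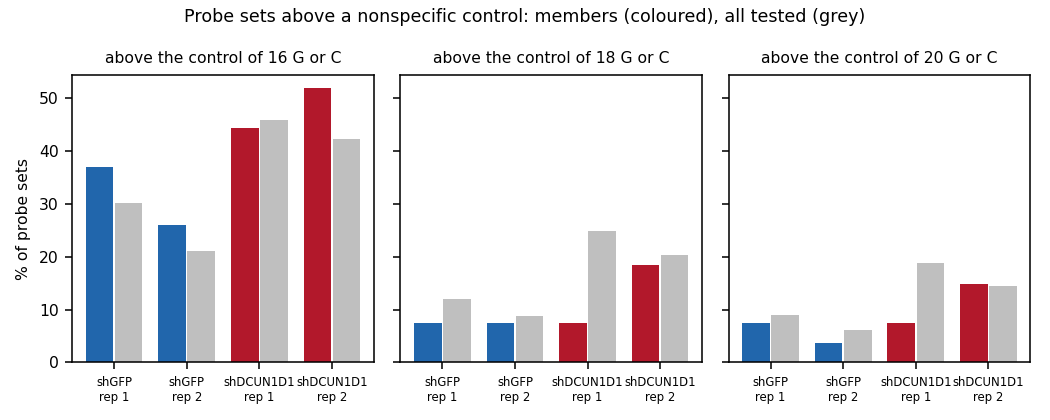
Percent of probe sets brighter than the nonspecific probe set with 16, 18 or 20 G or C bases in the same array, for the 27 members (blue for shGFP, red for shDCUN1D1) and for all 40914 tested (grey). Against the control of 20 bases, at most 14.8% of the members lie above it in any array, and both grey bars of the knockdown are higher than those of the control.

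KLK4 encodes a kallikrein serine protease of prostate and tooth enamel, and it gave the one member signal that exceeded the nonspecific control in all arrays. Its probe set 1555697_PM_at read 5.35 and 4.34 in the control and 4.43 and 5.29 in the knockdown, above 20 to 22 of the 23 nonspecific probe sets. The arrays of replicate 1 of the control and replicate 2 of the knockdown were the high ones, and the groups overlapped fully. The difference was 0.01 log2 (SE 0.70, limma adjusted p = 0.999), and its 95% interval ran from -1.78 to 1.81, so that differences past a doubling or a halving in either direction lie inside it.

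The other KLK4 probe sets did not share this level. Probe set 231782_PM_s_at read 2.40 and 2.64 in the control and 2.01 and 1.70 in the knockdown, and 233854_PM_x_at read 2.17 and 1.95 in the control and 1.87 and 2.73 in the knockdown. On the first, the knockdown arrays were both dimmer than either control array, by 0.67 log2 on average (95% interval -1.32 to -0.02, limma adjusted p = 0.625). On the second, replicate 2 of the knockdown was the highest array and the groups overlapped. The remaining probe sets, 1555737_PM_a_at and 224062_PM_x_at, lay between 1.53 and 1.96 in all arrays, with differences of 0.12 and -0.07 log2. Of the 5 KLK4 probe sets, 3 were higher and 2 lower by sign.

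KLK3 encodes prostate-specific antigen, the secreted kallikrein protease that liquefies semen and serves as the blood marker of prostate disease. No array of the control lay above the nonspecific control on any of its 3 probe sets, and 1 knockdown array did on 1 of them. The brightest, 231629_PM_x_at, read 2.23 and 1.64 in the control and 1.84 and 2.77 in the knockdown, and the value of 2.77 in replicate 2 was the one above the nonspecific control. The groups overlapped, with a difference of 0.37 log2 (SE 0.41, limma adjusted p = 0.744).

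The other KLK3 probe sets went the other way by sign. On 204582_PM_s_at the control read 2.62 and 2.03 and the knockdown 1.42 and 1.71. The knockdown arrays were both dimmer than either control array, and the difference of -0.76 log2 (SE 0.28) was the lowest of the 27 members. Its 95% interval ran from -1.48 to -0.04, its unadjusted p was 0.043 and its adjusted p 0.625 by limma, and the lower bound of its fold, 1.14, stayed under 1.2. Without shGFP replicate 2 or without shDCUN1D1 replicate 2 it was lower past the fold bound, with differences of -1.06 and -0.90 log2, and without shGFP replicate 1 or shDCUN1D1 replicate 1 it was not, at -0.46 and -0.61 log2. On 204583_PM_x_at the control read 2.05 and 2.08 and the knockdown 1.33 and 1.95, again with the groups apart and the difference at -0.42 log2 (SE 0.26). Without shDCUN1D1 replicate 2, which left the lower array of the pair, that difference was -0.73 log2 and past the fold bound, and without shDCUN1D1 replicate 1, the array that stood apart, it was -0.11 log2. The lower signal on these probe sets had the same sign as that of the nonspecific control, -0.64 log2, and the part of that shift in it was not tested.

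KLK2 encodes the kallikrein nearest to KLK3 in sequence and position. All 4 of its probe sets were below the nonspecific control in every array and lower by sign in the knockdown. Probe set 209855_PM_s_at read 2.51 and 2.69 in the control and 2.19 and 2.20 in the knockdown, and it exceeded 15 of the 23 nonspecific probe sets in each array. Probe set 209854_PM_s_at read 1.76 and 2.27 in the control and 1.31 and 1.64 in the knockdown. On both, each knockdown array lay below each control array, with differences of -0.40 log2 (SE 0.26, limma adjusted p = 0.626) and -0.54 log2 (SE 0.25, limma adjusted p = 0.625). The second was -0.29 log2 without shGFP replicate 2 and -0.80 log2 without shGFP replicate 1. On 210339_PM_s_at and 1555545_PM_at, with signals from 1.35 to 1.90, the groups overlapped and the differences were -0.02 and -0.12 log2. Without shDCUN1D1 replicate 1 these differences were 0.16 and 0.02 log2. Names ending in s_at or x_at mark probe sets that the array's maker flagged as able to match more than 1 transcript, and 6 of the 7 probe sets of KLK2 and KLK3 carry such an ending, so signal of 1 of these genes may be read on a probe set of the other.

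TMPRSS2 encodes a serine protease of the cell surface whose promoter is joined to ETS genes in many prostate cancers. Its probe set 205102_PM_at read 3.72 and 2.90 in the control and 3.22 and 3.11 in the knockdown. It lay above the nonspecific control in 3 arrays, all but shGFP replicate 2, where it read 2.90 against 3.30. The control arrays enclosed both knockdown arrays, and the difference was -0.15 log2 (SE 0.46, limma adjusted p = 0.923, 95% interval -1.31 to 1.02).

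The other TMPRSS2 probe sets lay between 1.31 and 2.23 in all arrays. On 211689_PM_s_at the control read 1.53 and 1.81 and the knockdown 1.35 and 1.39, and on 1570433_PM_at the control read 1.51 and 1.61 and the knockdown 1.31 and 1.48. The groups were apart on both, with differences of -0.30 log2 (SE 0.16) and -0.17 log2 (SE 0.14). These were -0.16 log2 without shGFP replicate 2 and -0.08 log2 without shDCUN1D1 replicate 1, respectively. On 226553_PM_at the difference was 0.23 log2, through replicate 2 of the knockdown at 2.23 against 1.77 to 1.81 in the other arrays.

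FOLH1 encodes prostate-specific membrane antigen, a folate hydrolase of the cell surface used as a target for imaging. None of its 4 probe sets lay above the nonspecific control in any array. The brightest, 217487_PM_x_at, read 1.93 and 2.68 in the control and 2.13 and 2.40 in the knockdown, so that the control arrays lay on either side of the knockdown arrays. Its difference was -0.05 log2 (SE 0.34, 95% interval -0.93 to 0.83). The groups overlapped on all 4 FOLH1 probe sets, with differences from -0.05 to 0.22 log2. On 215363_PM_x_at, which read 1.03 to 1.16, the 4 arrays lay within 0.13 log2.

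STEAP2, a metalloreductase of the prostate cell membrane, had 1 probe set and the smallest unadjusted p of the members. Probe set 225871_PM_at read 1.18 and 1.23 in the control and 1.52 and 1.58 in the knockdown. Both knockdown arrays lay above both control arrays, by 0.35 log2 (SE 0.11, unadjusted p = 0.027, limma adjusted p = 0.625), and the 95% interval ran from 0.06 to 0.64. All 4 values were below the nonspecific control, and the lower bound of the fold was 1.09. The difference lay between 0.32 and 0.38 log2 whichever array was left out.

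ACP3 encodes prostatic acid phosphatase, a secreted enzyme of luminal cells. Its probe set 237030_PM_at read 2.02 and 1.94 in the control and 2.14 and 2.23 in the knockdown, with the groups apart and a difference of 0.20 log2 (SE 0.21, limma adjusted p = 0.724). Probe set 204393_PM_s_at read 1.59 and 1.38 in the control and 1.28 and 1.40 in the knockdown, and 231711_PM_at read 1.09 in both control arrays and 1.13 and 0.90 in the knockdown. The groups overlapped on these, with differences of -0.14 and -0.07 log2, and the value of 0.90 was the lowest of all members.

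FKBP5 encodes a co-chaperone of steroid receptors that glucocorticoids also induce, and it was the member with the widest range. Probe set 204560_PM_at read 2.09 and 3.01 in the control and 1.75 and 2.11 in the knockdown, a range of 1.26 log2 that came from replicate 2 of the control, whose nonspecific control was 3.30. The groups overlapped and the difference was -0.62 log2 (SE 0.38, limma adjusted p = 0.625, 95% interval -1.61 to 0.36). Without shGFP replicate 2 it was -0.16 log2, and without shGFP replicate 1 it was -1.08 log2. The other FKBP5 probe sets, 224840_PM_at and 224856_PM_at, read 1.38 to 1.97 in all arrays and differed by -0.05 and -0.06 log2. On the second of them the 4 arrays lay within 0.12 log2, the narrowest range of the 27 members. Among 180 genes of the lists described below, those nearest to 204560_PM_at in pattern, by the root mean square difference over the 4 arrays after centring each, were HLA-DRA (0.088), FOXA2 (0.127) and NGFR (0.171). Each of these had its highest signal in shGFP replicate 2, which follows from choosing them by this pattern. Each lay below the nonspecific control in all arrays on its brightest probe set.

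**Figure D3:**
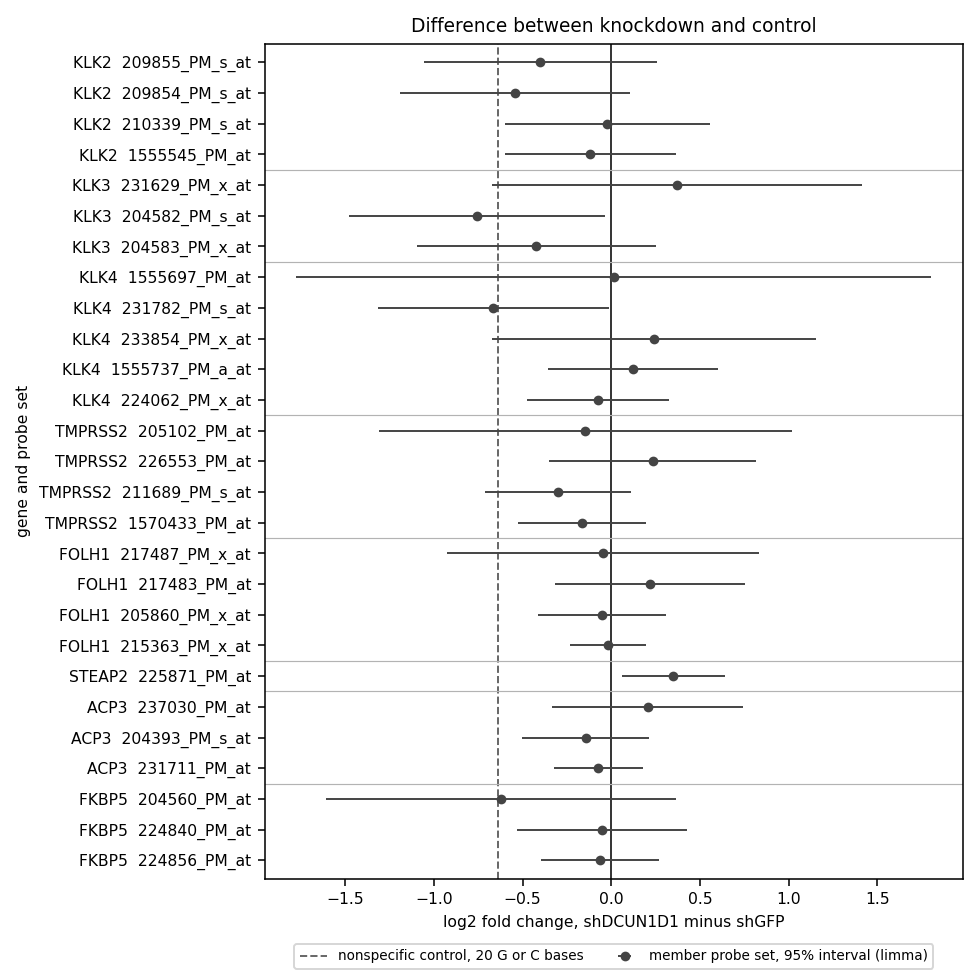
Log2 fold change of the 27 probe sets, shDCUN1D1 minus shGFP, as points with 95% intervals from limma, with the shift of the nonspecific control, -0.64, as a dashed line. The points lie from -0.76 to 0.37, and 25 of the 27 (92.6%) lie to the right of the dashed line, as do 95.3% of all probe sets tested.

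Across the members, limma with Benjamini–Hochberg adjustment over all 40914 probe sets called 0 of 27, as it called 0.0% of all probe sets, and the smallest adjusted p was 0.625. At an unadjusted p under 0.05, the members higher were 1 (STEAP2) and those lower were 2 (KLK3 and KLK4), where 2.3% of all probe sets were higher and 5.25% lower. The methods' t-test gave 2 members at an unadjusted p under 0.05 and 0 after adjustment, against 2928 and 1 of all probe sets. Past the fold bound, with limma's standard error, were 0 of the 27 members, with 1.18% of all probe sets higher and 2.38% lower. Both knockdown arrays lay above both control arrays for 2 members and below them for 8, where 17.9% of all probe sets were apart upward and 25.0% downward.

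By sign alone, 19 of the 27 members were lower (70.4%), against 51.7% of all probe sets, and the median difference was -0.06 log2 against -0.01 over all. For 19 of the 27 the difference was smaller than the larger SD of its groups. Probe sets of 5 of the 8 genes pointed both ways, all of KLK2 and FKBP5 pointed down, and STEAP2 had a single one. The signs of KLK2 and FKBP5 did not all hold with 1 array left out. Without shGFP replicate 1, KLK2 on 210339_PM_s_at was 0.16 log2 and FKBP5 on 224840_PM_at 0.02 log2. Standard errors ran from 0.08 to 0.70 log2, with a median of 0.21 against 0.20 over all probe sets. The 95% intervals of 17 members lay within 1 log2 of no difference, and those of 10 reached at least 1 log2 in some direction. When each array was centred on the mean of the 23 nonspecific probe sets, a choice made after the data were seen, the median member was 0.28 log2 higher and the median of all probe sets 0.33 log2 higher, and STEAP2 was past the fold bound at 0.70 log2.

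Related genes were read from 12 lists with 180 of 202 genes measured, and limma called 0 genes in each. A gene was counted if any of its probe sets was past the fold bound, so genes with many probe sets had more chances. By probe set, 1 of 21 of the other kallikreins and 1 of 31 of the other relatives was lower. In the chaperone list 1 of 46 was higher. Over all probe sets 1.18% were higher and 2.38% lower. Among the relatives of the members, 0 of 11 other kallikreins were higher past the fold bound and 1 lower, KLK15, with 4.0 and 4.32 in the control and 2.70 and 2.28 in the knockdown. Its mean difference over 4 probe sets was -0.63 log2, and the list's median was -0.22. KLK1, the tissue kallikrein, read 3.35 and 3.21 in the control and 2.63 and 3.10 in the knockdown. Of 15 relatives of STEAP2, TMPRSS2, FOLH1 and ACP3, 0 were higher and 1 was lower, the surface protease ST14 at -0.70 log2 with no array above the nonspecific control (list median -0.09). ST14 was past the bound in none of the fits without 1 array, and without shDCUN1D1 replicate 2 the list held 3 genes higher, ACP1, ACP6 and STEAP1, and 0 lower. The brightest of them, ACP1, was high in shDCUN1D1 replicate 1 alone, at 5.05 against 1.95 to 3.32, and TMPRSS11D differed by 0.15 log2, or -0.41 without shDCUN1D1 replicate 2.

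The relatives of FKBP5, 18 FKBP genes and steroid receptor chaperones, had the highest median of the lists, 0.63 log2. It was 0.15 log2 without shDCUN1D1 replicate 1, the array that stood apart. In this list 1 gene was higher past the fold bound and 0 lower: the chaperone HSP90AA1, with 5.76 and 3.72 in the control and 8.42 and 7.12 in the knockdown, a difference of 3.03 log2 that was 2.01 and not past the bound without shGFP replicate 2. Without shDCUN1D1 replicate 2, 10 genes of the list were higher past it. HSPA8 and HSP90AB1, the brightest, were 0.61 and 1.38 log2 higher with the groups apart, and 0.25 and 0.77 log2 higher without shGFP replicate 2. Here 8 of the 18 genes were above the nonspecific control in all arrays, unlike FKBP5 itself.

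**Figure D4:**
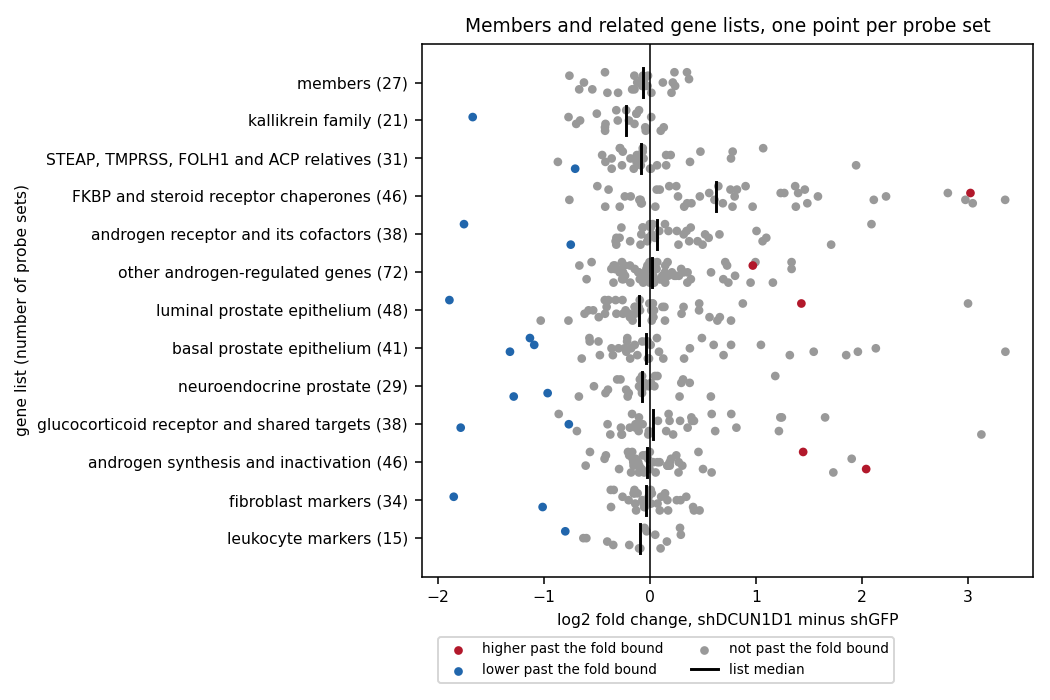
Log2 fold change, shDCUN1D1 minus shGFP, of each probe set of the members and of 12 related gene lists, with the list's median as a bar and probe sets past the fold bound in red (higher) or blue (lower). The members lie between -0.76 and 0.37 with none past the bound, and the chaperone list has its median at 0.63.

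For genes that act with the receptor or respond to androgen, calls are read beside the 3.56% of all probe sets past the fold bound. Past it were 2 of 38 probe sets of the cofactors and 1 of 72 of the other androgen-regulated genes. So were 2 of 38 of the glucocorticoid list and 2 of 46 of androgen synthesis and inactivation. Of 15 measured cofactors, 2 were past the fold bound on 1 of their probe sets, both in the lower direction, TRIM24 by -1.75 log2 and NCOA1 by -0.75 log2, while their means over probe sets were -0.31 and 0.24 (list median 0.07). RAN and KDM1A, the brightest, differed by 0.45 and -0.19 log2, and KDM1A by 0.22 without shGFP replicate 2 and 0.13 without shDCUN1D1 replicate 2. Of 24 other androgen-regulated genes, 1 was higher, the vesicle protein RAB3B by 0.97 log2 and below the nonspecific control in all arrays, and 0 were lower (median 0.02). KLF5 and STK39 differed by 0.74 and 0.95 log2 with no call, and by 0.20 and 0.49 without shGFP replicate 2. Of 17 genes of the glucocorticoid receptor and its shared targets, 0 were higher and 1 lower, KLF9 by -1.79 log2 with a mean of -0.43 over 5 probe sets (median 0.03), while GADD45A and NFKBIA differed by 1.23 and 0.40 log2. Without shGFP replicate 2 these were 0.47 and -0.18, and without shDCUN1D1 replicate 1 they were 0.63 and 0.07. Of 21 genes of androgen synthesis and inactivation, 2 were higher, the ketosteroid reductases AKR1C2 by 2.04 and AKR1C1 by 1.45 log2, and 0 lower (median -0.02). Without shDCUN1D1 replicate 1 these were 0.81 and 0.80 log2, and without either shGFP array neither was past the bound. HSD17B10 and POR differed by 0.58 and -0.56 log2, and by -0.17 and -0.35 without shDCUN1D1 replicate 1. Without shDCUN1D1 replicate 2, which leaves the array that stood apart as the lone knockdown array, 5 cofactors, 7 other androgen-regulated genes and 8 genes of the glucocorticoid list were higher past the bound.

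Among cell type markers, 1 of 19 luminal genes was higher past the fold bound and 1 lower, with a median of -0.10 log2. By probe set, 1 of 48 luminal ones was higher and 1 lower, and 3 of 41 basal and 2 of 29 neuroendocrine ones were lower. Over all probe sets 1.18% were higher and 2.38% lower. The higher was PDLIM5 at 1.43 log2 (mean over 10 probe sets 0.32), and the lower was KRT8 on 216821_PM_at, at 3.66 and 3.72 in the control and 2.0 and 1.59 in the knockdown, while its brighter probe set differed by 0.02 log2. The luminal factor SPDEF differed by -0.58 log2 (-0.35 without shDCUN1D1 replicate 1) and, with KRT8 and AZGP1, was above the nonspecific control in all arrays. Of 12 basal genes, 2 were lower, CD44 by -1.09 log2 on 234411_PM_x_at (mean over 13 probe sets 0.88) and ITGB4 by -1.32 log2, which was -0.66 without shGFP replicate 2 (median -0.03). DLK2 differed by 0.13 log2, or -0.12 without shGFP replicate 2. Of 14 neuroendocrine genes, 2 were lower, ENO2 by -1.28 log2 and NCAM1 by -0.96 log2 on 214952_PM_at (list median -0.07). On that probe set NCAM1 lay above the nonspecific control in 0 arrays, and its mean over 7 probe sets was 0.13. Its brightest probe set, 209968_PM_s_at, lay above the nonspecific control in all 4 arrays and was 0.58 log2 higher, with the groups apart. CALCA differed by -0.01 log2, or 0.52 without shDCUN1D1 replicate 1. Without shDCUN1D1 replicate 2, 5 luminal and 3 basal genes were higher past the bound.

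Markers of cells that a line should lack were read in the same way. By probe set, 2 of 34 fibroblast and 1 of 15 leukocyte ones were lower past the fold bound, against 2.38% of all. Of 10 fibroblast genes, 2 were lower, PDGFRB by -1.01 log2 and COL1A1 by -1.85 log2 on 202312_PM_s_at (mean over 5 probe sets -0.26, median -0.04), and the log2 of the list's summed level was 5.65 to 5.89 in the control and 5.49 to 5.96 in the knockdown. COL1A1 was the one fibroblast gene above the nonspecific control in all arrays. Of 9 leukocyte genes, 1 was lower, TYROBP by -0.80 log2 (median -0.09), with a log2 summed level of 4.92 to 5.20 in the control and 4.79 to 4.87 in the knockdown. None of the 9 was above the nonspecific control in all arrays, and HLA-DRA, the brightest, differed by -0.60 log2, or -0.02 without shGFP replicate 2. Without shGFP replicate 2 no leukocyte gene was past the bound, without shDCUN1D1 replicate 1 CD14 was in place of TYROBP, and the list's median was then 0.03 and 0.01. PDGFRB was past the bound without shDCUN1D1 replicate 1 but not without any other array. Of the 18 genes past the bound in the 12 lists, 8 were past it on the same probe set whichever array was left out: KLK15, TRIM24, RAB3B, KRT8, ENO2, NCAM1, KLF9 and COL1A1. The others lost the call without at least 1 array, and CD44, like ST14, lost it whichever array was left out. Apart from the kallikrein and chaperone lists, the medians of the lists lay between -0.10 and 0.07 log2, as did that of the members. For the members as for these lists, 2 arrays a group limit the precision. The nonspecific controls were dimmer in both knockdown arrays, so their shift and the knockdown cannot be told apart, while the array that stood apart is 1 of the 2 and was left out in turn.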

How the data were processed

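RNA of DU145 cells with an shRNA against GFP or DCUN1D1 was measured on 4 arrays, 2 per group. The deposited table holds a log2 signal for each probe set and array, computed by the authors from the scanned images. Its software is unsettled: Affymetrix Expression Console stands in the submitters' processing notes without a version, and dChip with smoothing spline normalization in the methods.

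Groups were taken from the records. Of 54715 probe sets, the 40914 that the platform annotation tied to 1 gene were tested. Left out were 864 naming several genes, 12835 naming none and 102 controls. The values were not scaled further or filtered. limma (version 3.58.1, R 4.3.3) was fitted with a variance trend, two-sided, with Benjamini–Hochberg adjustment at 0.05. Past the fold bound means a fold above 1.2 at its lower 90% bound, taken from the moderated standard error of limma, which is the methods' rule without their software. The fit was tested on simulated data with added differences larger than that of any member. That test does not show how well differences of the members' size are found.

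The members, the lists and the rule for named genes were chosen with earlier results of these data known, so a list's count and median are descriptions. The 12 lists are kallikreins, STEAP, TMPRSS, FOLH1 and ACP relatives, FKBP genes and steroid receptor chaperones, receptor cofactors, other androgen-regulated genes, glucocorticoid receptor targets, androgen synthesis, and luminal, basal, neuroendocrine, fibroblast and leukocyte markers. Named were all members, DCUN1D1, the epithelial markers, the 2 brightest genes of each list and its genes past the fold bound, up to 4, and the 3 genes most like the member of widest range. Where a gene has several probe sets, the one named is the brightest or the one past the bound.

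The promoters of 6 of the 8 member genes, in 9 windows, came from a RefSeq table (GRCh38.p14). The fit was repeated with quantile normalization, with median centring, with a filter on low signal and with the brightest or the mean probe set of a gene. It was also repeated with other variance models, a replicate block, each array left out, other bounds and controls, and a plain t-test. Centring on the nonspecific controls was chosen after seeing the data. With 1 array left out, the lone array of its group was assumed to vary like the other group. Arrays have no read depth, so their number and the signal over background set the precision. p-values measure the spread between 2 arrays per group, described as biological duplicates.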

Additional observations from a re-analysis of the deposited data

How the results depend on the processing

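No member was called by limma's adjusted p under any alternative, while of all probe sets 2602 were called without shDCUN1D1 replicate 2 and 1 with an unmoderated standard error. The count of members past the fold bound, 0, was 1 after centring on the nonspecific controls (STEAP2) and 0 to 2 with 1 array left out. The count over all probe sets, 1455, was 584 with the probe sets of each gene averaged, 678 with a 95% bound, 415 with a fold of 1.5, and 550 to 4878 with 1 array left out, lowest without shGFP replicate 2 and highest without shDCUN1D1 replicate 2. After centring on the nonspecific controls it was 3368, with 3120 higher and 248 lower against 481 and 974, and the median member moved from -0.06 to 0.28 log2. The count of members above the nonspecific control in both arrays of a group, 2, was 12 against the control of 16 G or C bases and 0 against that of 25.

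Differences of some members changed sign. With the probe sets of each gene averaged they were -0.27 for KLK3, -0.073 for KLK4, 0.026 for FOLH1 and -0.0040 log2 for ACP3, against 0.37, 0.01, -0.05 and 0.20 on the brightest probe set. With quantile normalization KLK4 on 1555697_PM_at was -0.57. After centring on the nonspecific controls, TMPRSS2 was 0.20 on 205102_PM_at, 0.045 on 211689_PM_s_at and 0.18 on 1570433_PM_at. FOLH1 on 217487_PM_x_at was then 0.30 and FKBP5 on 224856_PM_at 0.28. These are examples, because this centring raised every probe set by the same amount. KLK2 on 209855_PM_s_at went from -0.40 to -0.056 log2, and every member that had been below 0 by less than that one turned higher. With 1 array left out, KLK3 on 231629_PM_x_at ran from -0.10 to 0.84 and KLK4 on 1555697_PM_at from -0.49 to 0.52. TMPRSS2 on 205102_PM_at ran from -0.56 to 0.26, FOLH1 on 217487_PM_x_at from -0.42 to 0.33 and KLK2 on 210339_PM_s_at from -0.20 to 0.16. Dimmer probe sets of other members changed sign too. The cause was not tested.

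With the replicate number as a replicate block, 0 members and 1174 of all probe sets were past the fold bound (505 higher, 669 lower). Deviations of same-numbered arrays correlated at -0.0369 over probe sets. With so few arrays per group, this value cannot show whether same-numbered arrays shared more than a number. The signal of 23 members never exceeded the nonspecific control, which limits what any of these values can show.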
